A study of Mus musculus with 18 samples.

Results

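The tiles described here lost DNA methylation in mammary stem cells of pregnant mice. A tile is a stretch of 1000 bases with at least 3 CpGs, each covered by 5 or more reads in all 18 libraries of the series, on chromosomes 1 to 19. Its methylation level is the share of methylated reads among all reads at those CpGs. A tile was kept where the highest of the 3 pregnant stem levels lay at least 10 percentage points below the lower of the 2 virgin stem levels. This held for 2199 of 73632 tiles (2.99%), with 9061 of the 516583 CpGs in tiles. The stem levels chose the tiles, so they are given as a description, and the 13 libraries that played no part in the choice carry the comparisons.

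Methylation of cytosine in CpG dinucleotides is a covalent mark that is copied after cell division. CpG-rich promoters are mostly free of it, while most other CpGs of the genome carry it, and lower levels outside promoters often mark enhancers and other regulatory elements. The mammary epithelium branches, forms alveoli and prepares for milk secretion during pregnancy, and regresses afterwards. Mammary stem cells are defined by their ability to regenerate the gland, progenitor cells are more restricted, and mature cells have completed differentiation.

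The libraries are reduced representation bisulfite libraries, in which DNA is cut with MspI at CCGG and reads fall mainly in CpG-rich regions. All came from the mammary epithelium of C57BL/6 females, from cells labelled as stem, progenitor or mature. The pregnant mice were at day 10, day 16 and day 19, 1 stage holds retired breeders, and the virgin mice were at week 3 and week 9. Each stage gave 1 library per cell type, so stages served as replicates, and nothing says whether libraries came from separate animals or pools. P-values thus reflect how these particular libraries scatter, which may be partly technical. The labels give an age for the virgin mice only, so age and pregnancy cannot be told apart. In a bulk library, a shift in which cells were present and a change of methylation within cells cannot be told apart either. Only methylation was measured, so the cell type labels could not be checked against marker expression.

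Reads summed over CpGs ran from 17513287 to 117922522 per library, and the median number of reads in a kept tile from 64 to 386. It was 181, 111 and 124 in the stem libraries of pregnancy days 10, 16 and 19, 88 in the retired stem library, and 197 and 259 in the stem libraries of virgin weeks 3 and 9. Depth was thus lower in every pregnant stem library than in either virgin one. When the reads of each tile were thinned to those of the shallowest of these 5 stem libraries, 2195 tiles met the rule and 1815 of them were among the 2199. Without the week 3 virgin stem library 4161 tiles would have met it. Files of the 3 day 19 libraries, the 3 retired libraries and the day 16 progenitor library have a different column layout from the other 11 files, a difference whose part in the results was not tested.

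Positions are on mouse build mm9, the build of the files. No gene annotation of that build was used. Instead, promoter sequences of RefSeq (build GRCm38.p6, from 250 bases before to 50 bases after a gene start) were placed by the spacing of their CpGs among the CpGs listed in the files. Of 31396 sequences, 15382 had the 8 or more CpGs required, and 7158 of them, from 6398 genes, matched at 1 position. Of their mirror images, which served as a check, 42 did. Tiles are assigned below to the start or span of such a gene only, exons and introns were not told apart, and chromosome 18 had no promoter sequences.

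Among the kept tiles, 4 held at least 3 CpGs of a placed promoter. At 3 of them the promoter CpGs themselves, with their reads summed, lay lower in every pregnant stem library than in either virgin one, and their sequences are shown for that reason. Each runs 5′ to 3′ on the strand of its gene, and capitals mark the CpGs covered by 5 or more reads in all 18 libraries. Lep, on the plus strand of chromosome 6, encodes leptin, the hormone of fat tissue that acts on appetite and energy balance. Gm13205, on the minus strand of chromosome 4, and Gm10863, on the plus strand of chromosome 15, are listed as long non-coding RNA genes.

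Lep: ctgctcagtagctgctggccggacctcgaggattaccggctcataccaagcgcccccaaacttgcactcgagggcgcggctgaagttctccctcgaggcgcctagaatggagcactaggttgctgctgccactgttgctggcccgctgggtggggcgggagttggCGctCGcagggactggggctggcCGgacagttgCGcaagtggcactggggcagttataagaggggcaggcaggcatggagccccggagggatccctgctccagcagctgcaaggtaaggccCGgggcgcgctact

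Gm13205: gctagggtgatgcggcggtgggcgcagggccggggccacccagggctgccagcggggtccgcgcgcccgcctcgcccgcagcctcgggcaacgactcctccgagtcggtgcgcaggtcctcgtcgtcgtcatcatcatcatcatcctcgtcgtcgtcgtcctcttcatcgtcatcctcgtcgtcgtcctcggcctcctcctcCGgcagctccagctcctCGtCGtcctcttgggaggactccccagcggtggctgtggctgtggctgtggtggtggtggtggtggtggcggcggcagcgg

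Gm10863: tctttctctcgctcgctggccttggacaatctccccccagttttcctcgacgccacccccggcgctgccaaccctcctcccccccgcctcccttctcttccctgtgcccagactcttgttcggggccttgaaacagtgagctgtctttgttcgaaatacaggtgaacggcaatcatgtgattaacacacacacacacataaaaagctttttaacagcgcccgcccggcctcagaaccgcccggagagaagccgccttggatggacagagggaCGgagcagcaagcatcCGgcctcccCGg

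In the Lep tile (chr6:29010001-29011000) the 5 capital CpGs were all the CpGs measured, with 74 to 607 reads per library. The tile was methylated at 38.6%, 16.8% and 17.6% in the stem libraries of pregnancy days 10, 16 and 19, at 31.2% in the retired stem library, and at 58.9% and 64.6% in the stem libraries of virgin weeks 3 and 9. Pregnant stem libraries thus averaged 24.3% ± 12.4 (SD, n = 3) and virgin stem libraries 61.8% ± 4.04 (n = 2), and no library's 95% Wilson interval was wider than 10.8 points to either side. Both day 16 and day 19 lay far below day 10, and the retired library fell among the pregnant ones.

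Single CpGs of the Lep promoter differed in level, but at each of the 5 every pregnant stem library lay below both virgin ones. The rule used these CpGs, so this order is largely fixed by it. The CpG 52 bases before the start was methylated at 66.7%, 24.1% and 17.9% in stem cells at pregnancy days 10, 16 and 19, and at 89.1% and 88.1% at virgin weeks 3 and 9. The CpG 81 bases before the start had 3.12%, 4.76% and 6.25% in the pregnant stem libraries and 36.0% and 28.0% in the virgin stem libraries. There the retired stem library, at 50%, lay above both virgin libraries, whereas at the 52-base CpG it was 37.3%. That library had a median of 13 reads per CpG, so its levels at single CpGs are imprecise. In progenitor and mature cells the pregnant and virgin levels of the Lep tile overlapped. They were 55.3%, 51.3% and 69.0% in progenitor cells at pregnancy days 10, 16 and 19, and 45.1% and 53.8% at virgin weeks 3 and 9, a difference of 9.07 points (adjusted p = 1.0 by moderated quasi-binomial regression). In mature cells they were 37.3%, 58.3% and 59.7% in pregnancy and 63.2% and 23.4% in virgin mice.

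**Figure D1:**
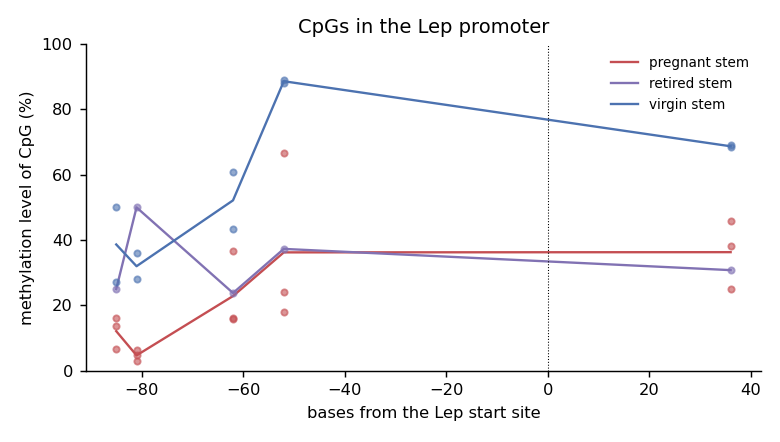
Methylation level (%) of the 5 CpGs measured in the Lep promoter against their distance in bases from the start site (dotted line). Points are single stem libraries and lines join the group means (3 pregnant, 1 retired, 2 virgin). At the CpG 52 bases before the start, the pregnant libraries sit between 17.9% and 66.7%, below the virgin libraries at 88.1% and 89.1%.

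The Gm13205 tile (chr4:148326001-148327000, 11 CpGs) was methylated at 27.0%, 17.8% and 26.2% in stem cells at pregnancy days 10, 16 and 19, at 47.0% in retired stem cells, and at 57.2% and 66.6% at virgin weeks 3 and 9. Its 3 promoter CpGs read 26.9%, 8.05% and 23.0% in pregnant, 25.0% in retired, and 63.3% and 67.4% in virgin stem cells. At these CpGs pregnant progenitor libraries had 77.5%, 92.2% and 66.7%, and virgin progenitor libraries 54.4% and 70.9%. The low values of pregnant stem cells were thus not shared by progenitor cells of the same stages.

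The Gm10863 tile (chr15:78996001-78997000, 6 CpGs) had 14.8%, 0.0% and 13.2% in pregnant, 9.62% in retired, and 33.4% and 53.0% in virgin stem cells. Mature cells were low here in virgin mice already, at 9.21% at week 3 and 15.0% at week 9. The fourth promoter, that of the long non-coding RNA 9630013D21Rik, lay in a tile that met the rule (chr4:109330001-109331000), but its 5 measured promoter CpGs, with their reads summed, were at or under 0.844% in all 18 libraries. The loss in that tile was carried by the other CpGs of its 20.

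Across all 2199 tiles the median level was 28.9%, 24.6% and 30.6% in stem cells at pregnancy days 10, 16 and 19, 36.3% in retired stem cells, and 59.4% and 65.4% at virgin weeks 3 and 9. As means of these library medians, pregnant stem cells stood at 28.0% ± 3.07 (SD, n = 3) and virgin stem cells at 62.4% ± 4.29 (n = 2). The gap that the rule is built on, from the highest pregnant to the lower virgin level, had a median of 16.5 points and reached 57.9. It was 10 to 20 points in 1445 tiles (65.7%), 20 to 30 in 503, 30 to 40 in 189, 40 to 50 in 57, and above 50 in 5. The mean difference, pregnant minus virgin, had a median of -27.0 points. Day 16 was the lowest of the 3 pregnant libraries in 1195 tiles (54.3%), and week 9 the higher of the 2 virgin libraries in 1549 (70.4%).

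The opposite rule, with every pregnant stem library at least 10 points above both virgin ones, was met by 574 tiles (0.78%). Applied to the other cell types, the falling rule was met by 16 tiles (0.0217%) in progenitor and by 22 (0.0299%) in mature cells. Each of these counts comes from 3 libraries against 2.

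**Figure D2:**
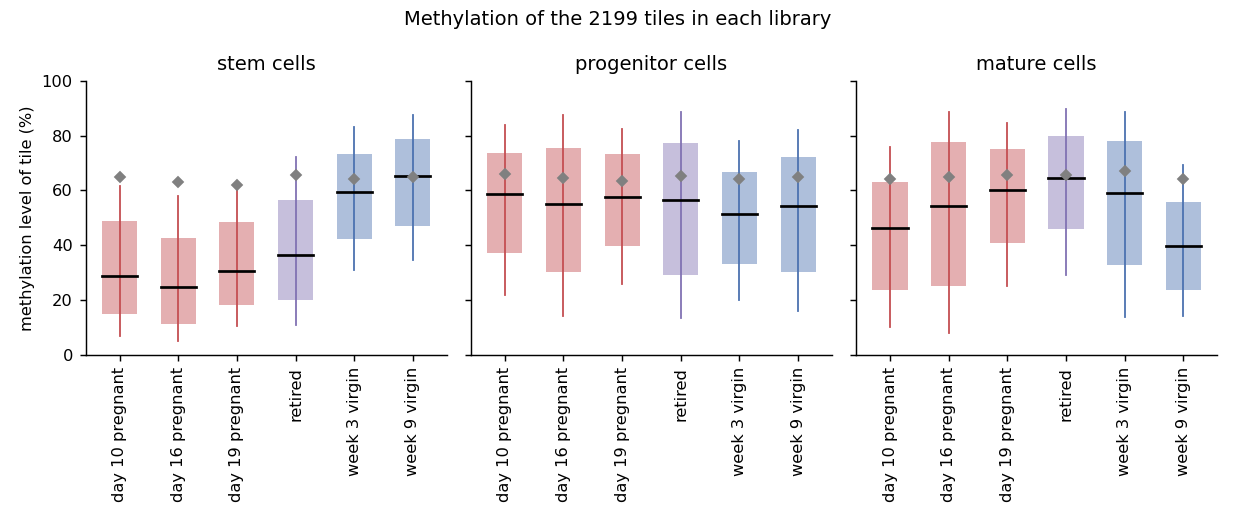
Methylation level (%) of the 2199 tiles in each of the 18 libraries, by cell type. Boxes span the middle 50% of tiles, black lines are medians, thin lines run from the 10th to the 90th percentile, and grey diamonds are medians of all other tiles at 20 to 80%. Stem medians are 24.6% to 30.6% in pregnant, 36.3% in retired and 59.4% to 65.4% in virgin libraries, and week 9 virgin mature stands at 39.6%.

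The single CpGs of the tiles, whose summed reads chose them, are described next. Of the 9061 CpGs, 8784 (96.9%) had a lower mean in pregnant than in virgin stem libraries, and at 7067 (78.0%) the groups did not overlap. Every CpG was lower in 1983 tiles (90.2%). Since the rule used these CpGs in these libraries, their direction is largely fixed by it and nothing is read from these shares. The measured CpGs of a tile spanned a median of 124 bases. In 663 of the tiles, 1414 further CpGs had reads in the 5 virgin and pregnant stem libraries but missed the minimum in at least 1 of the 18, so the rule never used them. Their median difference was -21.6 points, and 86.6% were lower in pregnant stem cells. These CpGs lie in the same tiles and libraries as those that chose the tiles.

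Most tiles that met the rule were of middle methylation. The mean over the 12 progenitor and mature libraries, which had no part in the choice, was 20 to 80% in 1745 tiles (79.4%), against 21.2% of all tiles, and 11.2% of the 15600 tiles of this class met the rule. Of tiles under 20%, 0.884% met it, and of those above 80%, 0.711%. A tile near either end of the scale has less room to separate by 10 points, so these shares are a description. Tiles with few CpGs were the more frequent, with 1113 (50.6%) at exactly 3 CpGs, against 33.5% of all tiles, and only 2 of 4197 tiles with 20 or more CpGs met the rule. Within the class of 20 to 80% the share was 11.9% at 3 CpGs, 11.2% at 4, 10.5% at 5 to 9, 6.83% at 10 to 19 and 1.85% at 20 or more.

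Where the other cell types stood was seen by setting their mean next to the stem levels. In 729 tiles (33.2%) the mean of the 12 progenitor and mature libraries was at or above the lower virgin stem level, in 1292 (58.8%) it lay between the groups, and in 178 (8.09%) it was at or below the highest pregnant stem level. In the first class the median level was 30.5% in pregnant, 39.6% in retired and 64.8% in virgin stem cells, next to 67.2% in the other cell types. In the last class pregnant stem cells had 27.2%, retired 34.5% and virgin 56.1%, next to 31.0% in the other cell types. The classes are cut on these same levels, so their order within a class is set by its definition.

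The tiles lay on all 19 autosomes, from 2.14% of the tiles of chromosome 14 to 3.77% of those of chromosome 17. Neighbours of such tiles met the rule more often. Of 426 tiles directly next to one, 70 (16.4%) met it too, against 2.58% of the 62191 tiles with none within 50 kb. Among tiles that missed the rule at 20 to 80%, the median stem difference, pregnant minus virgin, was -4.45 points in the 95 directly next to one and -1.62 points in the 11284 with none within 50 kb. At the distances in between it was -2.71 to -0.824 points, without a steady trend. At 2 to 50 kb from one, the share of tiles that met the rule was 4.24% to 7.61%. These shares were not matched for methylation class. Of tiles that missed the rule, 26.7% directly next to one were at 20 to 80%, against 18.6% beyond 50 kb. The stem libraries that chose the tiles also gave these shares and stem differences, so they are a description. Most tiles stood alone: 2129 had no neighbour that met the rule, 32 pairs were adjacent, and 2 runs held 3 tiles.

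The run with more CpGs covered chr17:31984001-31987000 with 27 CpGs. Over the run, stem cells were methylated at 25.4%, 23.0% and 31.1% at pregnancy days 10, 16 and 19, at 31.8% in retired mice, and at 66.5% and 72.4% at virgin weeks 3 and 9. All 27 CpGs were lower in pregnant stem cells, and at 25 the groups did not overlap. Over all 9061 CpGs of the tiles 96.9% were lower, and at 78.0% the groups did not overlap. The rule used these CpGs in these libraries, so their direction is largely fixed by it. Progenitor cells had 77.2%, 78.1% and 67.7% in pregnancy, 80.3% in retired and 60.2% and 68.6% in virgin mice, while mature cells had 50.4%, 74.4% and 76.6% in pregnancy, 80.5% in retired and 80.9% and 39.4% in virgin mice. Pregnant and retired stem libraries were the lowest of the 18, and week 9 virgin mature, at 39.4%, came next.

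The other run, chr4:133428001-133431000, lay inside Rps6ka1, which encodes a ribosomal S6 kinase of the MAP kinase pathway. Its 11 CpGs read 39.0%, 42.4% and 41.6% in pregnant, 56.3% in retired, and 67.8% and 66.8% in virgin stem cells. The groups did not overlap over the run as a whole or at 8 of its CpGs, which the rule largely fixes. The retired library lay between the groups over the run. Next in length by the rule for naming was a pair of tiles (chr1:72902001-72904000) about 31.0 kb downstream of the start of Igfbp2, which encodes a binding protein of insulin-like growth factors. Its first tile had 36.0%, 42.4% and 52.3% in pregnant stem cells, 5.17% in retired stem cells, and 64.9% and 90.1% in virgin stem cells, with as few as 22 reads in 1 library. Its second tile had 20.7%, 33.3% and 25.0% in pregnant, 19.6% in retired, and 58.4% and 84.4% in virgin stem cells. Retired minus the pregnant mean was -38.4 points in the first tile and -6.71 points in the second.

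**Figure D3:**
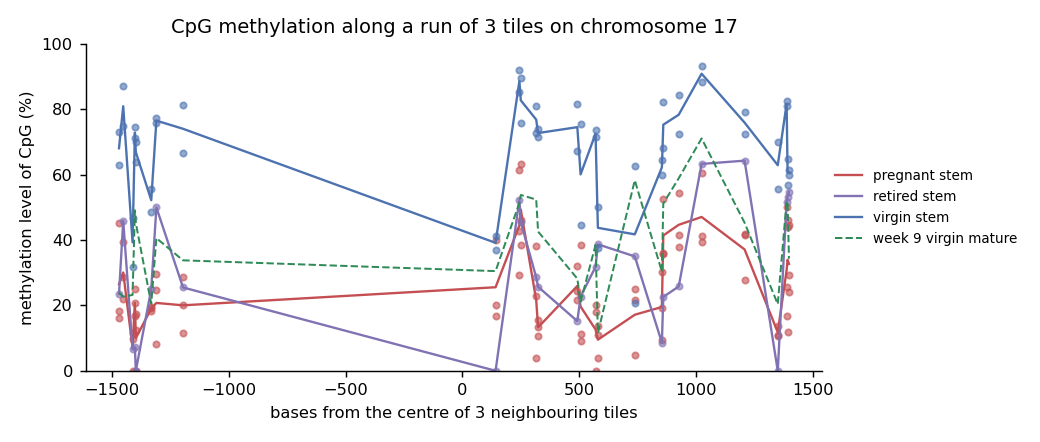
Methylation level (%) of the 27 CpGs of the 3-tile run on chromosome 17 against distance in bases from its centre. Points are single stem libraries, solid lines group means (3 pregnant, 1 retired, 2 virgin) and the green broken line the week 9 virgin mature library. The mean of pregnant stem libraries is below that of virgin stem libraries at all 27 CpGs, a direction largely fixed by the rule.

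Single tiles with the widest stem gap and at least 50 reads in every library were examined next. The widest (chr15:25857001-25858000, 4 CpGs) lay inside Retreg1, which encodes a receptor for the turnover of endoplasmic reticulum. Its levels were 30.5%, 21.8% and 27.8% in stem cells at pregnancy days 10, 16 and 19, 37.4% in retired stem cells, and 86.6% and 86.3% at virgin weeks 3 and 9. Progenitor cells had 68.0%, 77.2% and 63.6% in pregnancy and 72.7% and 73.8% in virgin mice, so the groups overlapped there. Mature cells also overlapped, with 61.7%, 83.3% and 68.1% in pregnancy and 85.2% and 51.5% in virgin mice.

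A tile inside Jag2, a ligand of Notch receptors, lay 3.53 kb downstream of the gene's start (chr12:114164001-114165000). It had 39.2%, 29.2% and 26.9% in pregnant stem cells, 49.5% in retired and 86.6% and 89.0% in virgin stem cells. Progenitor cells stayed high, with 75.8%, 84.0% and 75.0% in pregnancy and 71.9% and 83.5% in virgin mice. The tile at chr10:70512001-70513000 had 18.2%, 16.8% and 11.0% in pregnant, 17.9% in retired and 67.0% and 81.4% in virgin stem cells. There 2 of the pregnant progenitor libraries (44.7%, 78.0% and 54.7%) lay above both virgin ones (39.0% and 44.9%). The other 5 tiles of this set had gaps of 44.5 to 50.4 points, and pregnant stem means of 19.5% to 24.4% against virgin stem means of 67.5% to 84.2%. One of them, chr3:102325001-102326000, ranged widely within pregnancy, at 25.6%, 3.31% and 37.2%.

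The deepest tiles have less counting error, with 299 to 2895 reads per library and Wilson intervals of at most 5.62 points to either side. The rule fixed the direction of their stem difference, so their stem levels are a description. At chr19:5052001-5053000 (16 CpGs) stem cells had 8.46%, 12.0% and 7.98% at pregnancy days 10, 16 and 19, 7.31% in retired mice, and 35.5% and 49.7% at virgin weeks 3 and 9. A tile of 20 CpGs inside Apc2, a relative of the Wnt pathway gene Apc, had 26.8%, 18.7% and 27.4% in pregnant, 30.0% in retired and 45.2% and 49.3% in virgin stem cells (chr10:79776001-79777000). Another, chr7:26004001-26005000 (13 CpGs), stood apart by stage. It had 0.693%, 0.604% and 1.24% in stem, progenitor and mature cells of day 19, and 10.5% to 43.7% in every other library. It is also the 1 tile that met the falling rule in mature cells, with 13.7%, 22.0% and 1.24% in pregnancy and 33.2% and 32.2% in virgin mice. The day 16 progenitor and retired files share the column layout of day 19. In them the tile had 26.1% in day 16 progenitor cells, and 29.4%, 25.7% and 24.7% in retired stem, progenitor and mature cells. What sets day 19 apart here was not tested.

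Tiles at the threshold show what the rule separates. The 3 just inside and the 3 just outside all had a gap of 10.0 points when rounded. Just inside, chr10:127057001-127058000 had 6.93%, 11.4% and 9.23% in pregnant and 21.4% and 41.9% in virgin stem cells. Just outside, chr17:24705001-24706000 had 75.6%, 82.3% and 81.7% in pregnant and 92.3% and 94.4% in virgin stem cells.

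Whether the loss was shared by progenitor and mature cells was asked in the 12 libraries that did not choose the tiles. With all libraries in, no fall of the median was seen there. The median level in progenitor cells was 58.7%, 55.0% and 57.6% at pregnancy days 10, 16 and 19 and 51.5% and 54.5% at virgin weeks 3 and 9, so all 3 pregnant medians were the higher ones. Their means were 57.1% ± 1.93 (SD, n = 3) in pregnant and 53.0% ± 2.15 (n = 2) in virgin progenitor cells. Per tile, the median difference, pregnant minus virgin, was 3.62 points, and 1634 tiles (74.3%) were higher in pregnancy. Over all tiles the median difference was 0.0, and over all tiles at 20 to 80% it was 0.942 points with 57.0% higher.

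In mature cells the medians were 46.2%, 54.2% and 60.3% at pregnancy days 10, 16 and 19 and 58.9% and 39.6% at virgin weeks 3 and 9, and the groups overlapped. They averaged 53.6% ± 7.06 (n = 3) in pregnant and 49.2% ± 13.7 (n = 2) in virgin mature cells. The median difference per tile was 3.04 points, against -0.175 points over all tiles at 20 to 80%. This value rests on the week 9 virgin library: it was -3.63 points without that library, 8.77 points without week 3 virgin, and 0.0498 points without day 19. In progenitor cells, leaving out 1 progenitor library gave 2.51 to 4.62 points.

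The falling rule itself, with its gap of 10 points, was met in progenitor cells by 1 of the 2199 tiles (0.0455%), against 0.0217% of all tiles and 0.0897% of those at 20 to 80%. In mature cells it was met by 1, against 0.0299% of all tiles and 0.141% of the class. These were chr5:97433001-97434000, with 42.3%, 37.7% and 37.3% in pregnant and 60.3% and 64.4% in virgin progenitor cells, and the tile at chr7:26004001-26005000. The counts move with single libraries: the progenitor count was 17 without week 9 virgin and 14 without week 3 virgin, and the mature count 60 without day 19 and 58 without week 9 virgin. Fewer libraries make the rule easier to meet at any tile. The same counts were not taken over all tiles, so nothing is read from these rises. The opposite gap was found in progenitor cells at 15 tiles (0.682%), against 0.0801% of all tiles and 0.321% of those at 20 to 80%. In mature cells it was found at 0, against 0.0163% of all tiles and 0.0577% of the class. Without regard to size, pregnant and virgin progenitor libraries did not overlap with pregnancy higher at 306 tiles (13.9%; 7.78% of all tiles, 8.93% of those at 20 to 80%) and with pregnancy lower at 49 (2.23%; 8.33% of all tiles, 5% of those at 20 to 80%). In mature cells pregnancy was higher without overlap at 90 tiles (4.09%; 6.54% of all tiles, 5.52% of those at 20 to 80%) and lower at 29 (1.32%; 8.61% of all tiles, 6.88% of those at 20 to 80%).

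With at least 50 reads in every library, the widest falling gap in progenitor cells was 5.85 points. It was at chr2:136893001-136894000, 48.4 kb downstream of the start of the Notch ligand gene Jag1, with 75.4%, 78.2% and 64.7% in pregnant and 87.6% and 84.1% in virgin progenitor cells. A second Retreg1 tile (chr15:25814001-25815000) followed, with 35.5%, 34.1% and 37.3% in pregnant and 44.9% and 42.5% in virgin progenitor cells. The next, one of them inside Dab2ip, a Ras GTPase-activating protein gene, had gaps of 5.05 and 3.83 points. In mature cells the tiles after the one on chromosome 7 had gaps of 4.28 to 6.5 points. One of them, chr15:25347001-25348000, had 19.1%, 21.2% and 17.4% in pregnant and 28.2% and 26.1% in virgin mature cells.

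**Figure D4:**
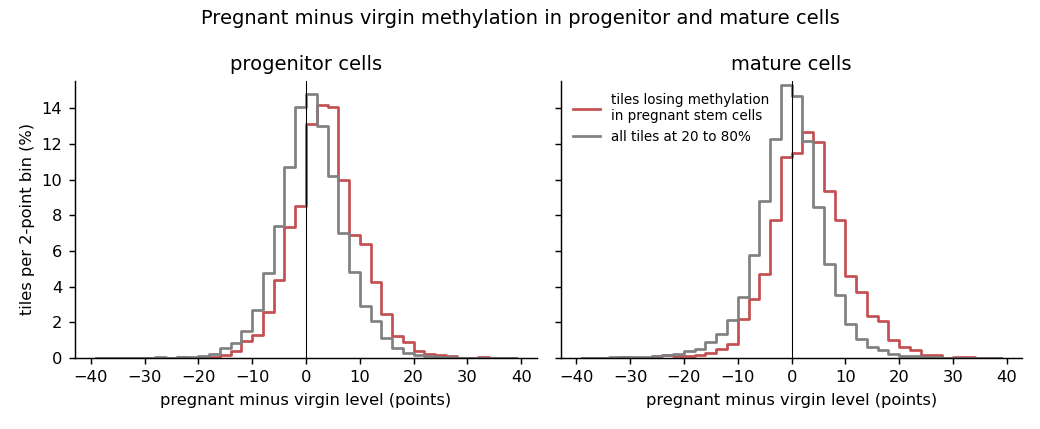
Share of tiles (%) per 2-point bin of the difference in methylation, pregnant minus virgin (percentage points), in progenitor cells (left) and mature cells (right), for the 2199 tiles and for all tiles at 20 to 80%, with larger differences counted in the outermost bins. The median of the 2199 tiles is 3.62 points in progenitor and 3.04 points in mature cells, against 0.942 and -0.175 points for all tiles at 20 to 80%.

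Each tile was then tested on its read counts by logistic regression with extra-binomial spread moderated across tiles (quasi-binomial, F test) in the 12 progenitor and mature libraries. P-values were adjusted by Benjamini-Hochberg over all 73632 tiles, and a call took an adjusted p under 0.05 and levels that differed by 10 points or more. Between pregnant and virgin progenitor cells 0 tiles were called (0% of all), among them 0 of the 2199, and the smallest adjusted p was 1.0. Of the 2199, 39 (1.77%) had an unadjusted p under 0.05 with 32 higher in pregnancy, against 2658 tiles (3.61%) overall and 3.01% of those at 20 to 80%. The fit takes 1 spread per tile over all groups of cell type and state. Medians of the virgin mature libraries had an SD of 13.7 over the 2199 tiles and 1.94 over other tiles at 20 to 80%. How far this moved the progenitor p-values was not tested. In mature cells 0 tiles were called (0%), the smallest adjusted p was 0.949, and 105 of the 2199 (4.77%) had an unadjusted p under 0.05, 86 of them higher in pregnancy, against 3504 tiles (4.76%) overall and 5.14% of those at 20 to 80%. Averaged over both cell types, a fit that counts progenitor and mature libraries of 1 stage as independent, 0 were called (0%), and 86 of the 2199 (3.91%) passed the unadjusted threshold, against 2931 (3.98%) overall and 3.56% of those at 20 to 80%. Limma, run on the log2 ratio of methylated over unmethylated reads, also called 0 in each of these comparisons. Splits by direction at the unadjusted threshold are given for the 2199 tiles only. With 3 libraries against 2 that vary between stages, a miss does not show that the levels were alike.

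Progenitor and mature cells were compared with stage as a block, and 0 tiles were called (0%; smallest adjusted p = 0.497 over all tiles and 0.757 among the 2199; limma 0). The unadjusted threshold was passed by 186 of the 2199 tiles (8.46%), 183 of them higher in progenitor cells, by 4822 tiles (6.55%) overall and by 7.39% of those at 20 to 80%. At any p, 63.5% of the 2199 were higher in progenitor cells, against 51.2% of those at 20 to 80%. The week 9 virgin and day 10 pregnant mature libraries had low medians over the 2199 tiles (39.6% and 46.2%), and their part was not tested. The median difference, progenitor minus mature, was 1.45 points over the 2199 tiles and 0.119 points over all tiles at 20 to 80%.

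Retired breeders were used to ask where methylation stood after past pregnancies. At 1578 tiles the level of retired stem cells was closer to the mean of pregnant than of virgin stem cells (71.8%), a share that was 64.9% to 72.1% when 1 pregnant or virgin stem library was left out. At 974 tiles (44.3%) it lay at or below the highest pregnant level, at 1014 (46.1%) between the groups, and at 211 (9.6%) at or above the lower virgin level. It is 1 library with no replicate, and its depth and file layout differ from those of the virgin libraries.

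Levels near the pregnant stem mean were not limited to stem cells. The week 9 virgin mature library was nearer to it at 1705 tiles (77.5%) and the day 10 pregnant mature library at 56.4%, although neither chose the tiles. The remaining 4 mature libraries ran from 15.4% to 39.8%, and the 6 progenitor libraries from 16.2% to 36.3%. So by this share 1 virgin library of another cell type stood as near to pregnant stem levels as the retired stem library did. It lay at or below the highest pregnant stem level at 34.3% of tiles, against 44.3% for the retired stem library. Other tiles at 20 to 80% gave no such shift: their median in week 9 virgin mature was 64.2%, close to the 62.0% to 67.0% of all 18 libraries.

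**Figure D5:**
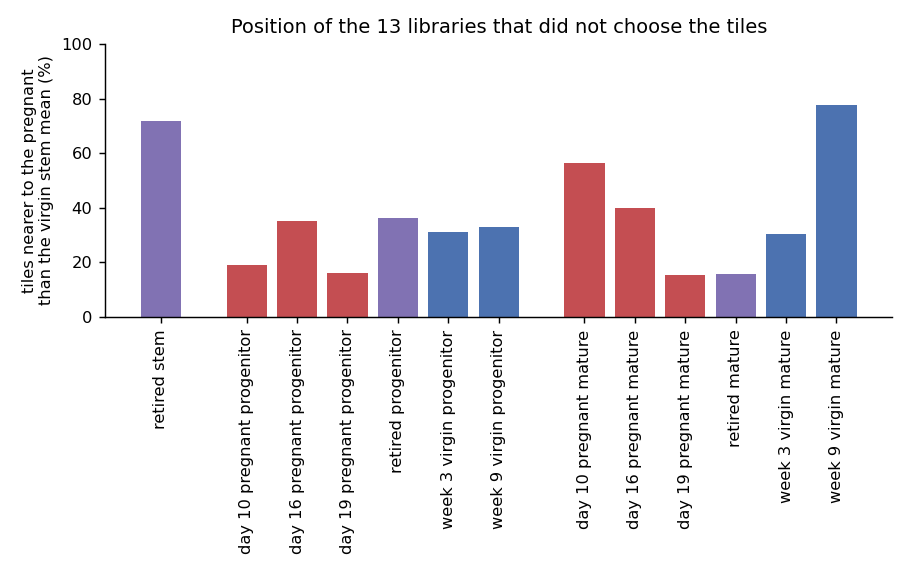
Share of the 2199 tiles (%) at which each of the 13 libraries that did not choose them lay closer to the mean of pregnant than of virgin stem libraries. Bars are single libraries, coloured by pregnant (red), retired (purple) and virgin (blue). Retired stem stands at 71.8% and week 9 virgin mature at 77.5%, and the 6 progenitor libraries at 16.2% to 36.3%.

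Single tiles in retired stem cells departed from the pregnant mean in both directions. Among tiles with at least 50 reads in every library, the one farthest above it lay inside Lats2, a kinase of the Hippo pathway (chr14:58314001-58315000), with 60.0% in the retired stem library, 20.9%, 6.19% and 24.4% in pregnant and 48.0% and 37.8% in virgin stem cells. The retired level there exceeded both virgin levels. At the same depth, the tiles at chr13:114147001-114148000, at chr9:59795001-59796000 and inside Sez6l followed, 36.3 to 42.1 points above the pregnant mean. Farthest below, again with 50 or more reads in every library, was chr5:125602001-125603000, with 23.6% in retired, 59.9%, 58.5% and 69.3% in pregnant and 81.9% and 81.0% in virgin stem cells. At chr5:107621001-107622000 the retired stem library had 2.15%, and pregnant stem cells 52.3%, 17.4% and 21.7%, against 67.4% and 91.8% in virgin stem cells.

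Retired progenitor and mature libraries did not share the low levels. Their medians over the 2199 tiles were 56.4% and 64.6%. The retired libraries come from 1 stage, and the fits over both cell types count progenitor and mature libraries of 1 stage as independent. Over both cell types, retired minus pregnant had a median of 4.82 points, against 1.58 points over all tiles at 20 to 80%, and 0 tiles were called (0%). At an unadjusted p under 0.05 there were 54 of the 2199 (2.46%), 45 of them higher in retired mice, against 3069 (4.17%) overall and 4.61% of tiles at 20 to 80%. Limma called 6 tiles in this comparison, 0 of them among the 2199. Retired minus virgin had a median of 8.30 points, against 1.87 points for the class, with 0 tiles called (0%; limma 0), and 94 of the 2199 (4.27%) at an unadjusted p under 0.05, against 3337 (4.53%) overall and 5.69% of tiles at 20 to 80%.

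Few of the tiles lay at placed gene starts. Promoters with too few CpGs, or without a unique match, could not be placed. Tiles at such promoters were thus not counted as lying at a start, and their number is unknown. The shares below therefore describe starts with CpG-rich promoters, not all gene starts. On the 18 chromosomes with promoter sequences, 12 of 2126 tiles (0.564%) lay within 1 kb of a placed start, against 12.1% of all tiles. Tiles of middle methylation were few there, 208 of 8600. Among tiles at 20 to 80%, 3.85% of those within 1 kb met the rule, against 11.9% at 1 to 10 kb, 12.7% at 10 to 100 kb and 9.88% farther away. Of 62 tiles at 20 to 80% that held at least 3 CpGs of a placed promoter, 3 (4.84%) met the rule, against 11.2% of all tiles of that class. Among tiles with a virgin stem level of 20% or more, the shares were close. There 5.13% of the 78 tiles with such promoter CpGs met the rule (4 tiles), against 4.32% of all 50358 tiles. The virgin stem level is part of the rule, so these last shares are a description. Inside the span of a gene with a placed start lay 530 tiles (24.9%), against 23.7% of all tiles.

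Of 5173 protein-coding genes with a placed start and a tested tile in their span, 423 held at least 1 tile that met the rule. Of them 357 had 1, 43 had 2 and 23 had 3 or more, a group singled out after its counts were seen. Large genes with many tested tiles have more chances to enter it. Levels given for a gene below are means over its tiles that met the rule, not over the gene. The rule thus largely fixes their stem difference. Col16a1, which encodes a collagen of the extracellular matrix, had 5 of its 7 tested tiles. Their mean level was 33.1% ± 1.67 (SD, n = 3) in pregnant, 34.6% in retired and 68.0% ± 8.86 (n = 2) in virgin stem cells, and 63.3% ± 2.59 in pregnant and 54.4% ± 4.12 in virgin progenitor cells. The other tiles of the gene differed by a mean of -0.561 points in stem cells. Across the 23 genes this mean of the other tiles ran from -5.3 points (Hspg2) to 3.95 points (Map7).

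Nav2, a neuron navigator gene, had 5 of 25 tiles. These 5 had 42.0% ± 6.49 in pregnant, 46.5% in retired and 70.4% ± 0.421 in virgin stem cells. Its other tiles differed by a mean of -1.53 points in stem cells. Ptpn14, a protein tyrosine phosphatase gene, had 4 of 15, with 27.4% ± 5.59 in pregnant, 43.1% in retired and 61.6% ± 3.92 in virgin stem cells. Ahdc1 had 4 of 15, with 23.6% ± 2.38 in pregnant, 34.7% in retired and 48.6% ± 8.83 in virgin stem cells. In all 3 genes the retired library lay above the pregnant mean and below the virgin mean.

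Some of the 19 genes with 3 tiles are described next, picked after their values were seen. Prkca, the gene of protein kinase C alpha, had 43.1% ± 8.51 in pregnant, 50.8% in retired and 77.3% ± 4.41 in virgin stem cells. Ephb2, an ephrin receptor gene, had 25.7% ± 3.82 in pregnant, 31.0% in retired and 58.0% ± 4.75 in virgin stem cells. Ptprf, a receptor-type tyrosine phosphatase gene, had 17.3% ± 4.13 in pregnant, 16.6% in retired and 49.8% ± 1.35 in virgin stem cells. At the Ptprf tiles pregnant progenitor cells had 40.9% ± 3.83 and virgin progenitor cells 33.9% ± 6.41. At those of Ephb2 progenitor cells had 50% ± 4.0 in pregnancy and 51.3% ± 0.0679 in virgin mice. These tiles were chosen by their stem levels, so the sizes of the stem and progenitor differences are not comparable.

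Hspg2, the gene of perlecan, a basement membrane proteoglycan, had 41.6% ± 4.09 in pregnant, 37.9% in retired and 68.3% ± 5.16 in virgin stem cells. Srebf2, which encodes a transcription factor of cholesterol synthesis genes, had 3 of its 4 tested tiles, with 50.4% ± 3.57 in pregnant, 63.8% in retired and 74.5% ± 0.117 in virgin stem cells. Mgll, the gene of monoacylglycerol lipase, had 20.7% ± 7.03 in pregnant, 28.8% in retired and 57.2% ± 1.54 in virgin stem cells. Septin9, a gene of the septin cytoskeleton, had the lowest levels of the 23, with 8.58% ± 1.36 in pregnant, 7.95% in retired and 33.7% ± 2.09 in virgin stem cells.

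Known mammary genes could be looked up only in part. Of the marker genes for stem or basal, luminal progenitor, mature luminal and stromal or blood cells, only Kit and Gata3 had a placed start, with 3 and 11 tested tiles in their spans and 0 that met the rule. Of the hormone signalling genes Stat5a, Stat5b, Tnfrsf11a and Wnt4 were placed, with 20 tested tiles and 0 that met it. For the cell cycle inhibitors Cdkn1b, Cdkn2a and Cdkn2b it was 0 of 4, and no milk protein gene was placed. With 2.99% of all tiles meeting the rule, so few tested tiles say little about these genes.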

How the data were processed

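The authors deposited 18 files of single CpGs, each with the methylated reads over all reads, on build mm9 per the submitters' processing notes. Libraries were made from MspI-digested, bisulfite-treated DNA, per the labels' protocols. For the aligner and methylation caller the name is not given in the sources used here. Of the files, 7 have 6 columns. In these the authors deposited a score beside the reads, equal to 1000 times the methylated share (largest difference 0.5), which was used only for that check; the other 11 files have 4 columns.

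CpGs with 5 or more reads in all 18 libraries on chromosomes 1 to 19 (678767 of 1485193) were summed into 1000 base tiles with 3 or more CpGs. The members and gene lists were chosen with earlier results of these data known. Tests used a quasi-binomial logistic regression per tile, its dispersion moderated by limma's squeezeVar method with a floor of 1, on the 12 progenitor and mature libraries, and were tested on simulated data. Stem libraries, which chose the tiles, stayed out of the fits. Intervals are 95% Wilson intervals and cover counting error only, since reads may be copies of 1 molecule.

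Tiles were named by rank: the 8 with the widest stem gap, the 4 deepest, 4 each by progenitor and mature gap, 4 each with retired stem farthest above and below the pregnant mean (all but the deepest among tiles with 50 or more reads in every library), the 3 longest runs, and 3 each just inside and outside the threshold, outside chromosome 18. Genes were placed by CpG spacing of RefSeq promoters, an approach, like the thinning of reads and the genes with 3 or more tiles, chosen after seeing the data. Of neighbouring placed starts 99.94% kept their order, and 100 of 100 pairs of starts of 1 gene kept their distance. Alternatives were 10 reads, 500 base tiles, a gap of 20 points, mean CpG levels, no CpGs above the 99th percentile of coverage, 50 reads per tile, all 18 libraries in the fit, limma on log2((methylated + 1)/(unmethylated + 1)), thinning, and leaving out each library. Python 3.11.15, numpy 2.4.6, scipy 1.17.1, pandas 2.3.3, R 4.3.3 and limma 3.58.1 were used.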

Additional observations from a re-analysis of the deposited data

Results flagged for a closer look

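At chr17:88274001-88275000 the difference, pregnant minus virgin, had opposite signs in progenitor and mature cells, which singled it out. The tile has 3 CpGs, with as few as 61 reads in a library. Progenitor cells had 19.6%, 26.2% and 45.6% at pregnancy days 10, 16 and 19 and 12.6% and 16.7% at virgin weeks 3 and 9, a difference of 15.8 points. Mature cells had 6.84%, 4.38% and 9.59% in pregnancy and 16.1% and 17.0% in virgin mice, a difference of -9.6 points. Neither difference was called by the moderated quasi-binomial regression (adjusted p = 0.949 in mature cells). The effects differ by 25.4 points, and that contrast between cell types was not tested. No group had the 4 libraries needed to look for a single outlying one.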

How the results depend on the processing

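The median difference, pregnant minus virgin, over the tiles in mature cells (3.04 points) turned to -3.63 points without week 9 virgin mature and was 0.0498 to 8.77 points without another mature library. In progenitor cells (3.62 points) it was 2.51 to 4.62 points in the alternatives run. Called tiles numbered 0 in each comparison, and a count at 0 says nothing of stability. The number of tiles meeting the rule (2199) was 956 with 10 reads, of 39711 tiles tested, 754 with a gap of 20 points, and 2610 to 4161 with 1 stem library left out, most without week 3 virgin stem. The share of tiles with retired stem nearer to the pregnant mean (71.8%) was 74.1% with 10 reads, 80.8% with a gap of 20 points, 73.8% with 50 reads per tile, and 64.9% to 72.1% with 1 stem library left out. Tiles with a falling gap of 10 points numbered 2 in progenitor cells with mean CpG levels, and 0 in mature cells with 10 reads, without CpGs of the highest coverage, with a gap of 20 points and with mean CpG levels. Leaving out 1 library gave 1 to 17 in progenitor and 1 to 60 in mature cells (60 without day 19, 58 without week 9 virgin). Fewer libraries make that gap easier to meet at any tile, and these counts were not taken over all tiles. Limma called 6 tiles for retired minus pregnant, and the cause was not tested. No paired analysis was possible because pregnant and virgin libraries come from different stages, so a shared number pairs nothing. A group left with 1 library was assumed to vary like the others. Shallow libraries, with 64 to 88 reads in a median tile when retired, limit single tiles.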
